A study of Bombyx mori with 12 samples.

Results

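SINEs outside the Bm1 family were followed in poly-A RNA and in Siwi-bound small RNA of BmN4 cells, an ovary-derived line of the silkworm Bombyx mori. Members were the rows of class SINE whose name does not contain "Bm1". They numbered 16 of the 1716 transposon entries, and the other 4 of the 20 SINE rows (Bm1, Bm1-450bp, Bm1modoki and ChoBm1) formed the Bm1 family used for comparison. By the family given in the row name, 6 members were SBTE (Hikikomori, Ins11, Neet, Rinne, Tenshi and Yaocho), 1 was tRNA (BmSE) and 9 were unclassified (Amanoya, Chikuri_polyA_type, Kohichi, Kusanagi, Minichikuri, Nagisa, SINE-1_BM, Sayama and Shirigonomi). All cells received 500 pmol of siRNA by nucleofection, were transfected a second time, grew at 26 °C and were collected after 10 days. The siRNA targeted luciferase (LucKD, the control), Siwi (SiwiKD), Ago3 (Ago3KD) or Mael (MaelKD). RNA came from LucKD, SiwiKD and MaelKD cells. Small RNA of 22 to 35 nt came from anti-Flag immunoprecipitates of Flag-tagged Siwi in LucKD, Ago3KD and MaelKD cells, so those 3 groups share the tagged protein. Each group had 2 libraries, and there were 12 in all. The labels do not state whether both libraries of a group represent different cultures. The p-values therefore reflect the spread among these libraries alone, and that spread may be technical. The targeted genes were not analysed here, so the extent of each knockdown is not known from these values.

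SINEs are short retrotransposons that encode no protein. Their RNA is copied back into the genome by enzymes of LINE retrotransposons, and many carry a head derived from a tRNA or another small RNA gene that recruits RNA polymerase III. In animal gonads, PIWI proteins loaded with piRNAs recognise transposon transcripts. The silkworm proteins Siwi and Ago3 cut opposite strands in turn and so produce piRNAs for each other, and Maelstrom (Mael) is a further piRNA pathway protein found across animals. RNA counted under a SINE entry can be its own transcript or a copy inside a longer transcript, and the tables do not separate them. Poly-A RNA can also miss transcripts without a poly-A tail, and how far it did so for each member was not tested.

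RNA is given as RPKM (reads per kilobase of entry per M library reads) and small RNA as RPM (reads per M library reads). Worked out from the smallest steps between values, RNA libraries totalled 32.5 to 45.2 M reads. Those of small RNA totalled 1.76 to 4.81 M. Changes are on the log2(value + 1) scale with the standard error of the limma fit, which covered all entries with a mean of at least 1 (490 in RNA, 1004 in small RNA). "Rose" and "fell" mark an adjusted p under 0.05 (limma, two-sided, Benjamini-Hochberg over all entries tested). All 16 members were tested in small RNA and 10 in RNA. The fit draws the spread of each entry toward that of other entries at a similar level. A standard error, and the p-value with it, can therefore be smaller than an entry's own 2 libraries would give. Levels carry the SD over 2 libraries. Trimmed-mean scaling, which levels the typical transposon entry between libraries, moved the median log2 change of all entries from -0.28 to 0.01 for Ago3 knockdown and from -0.44 to 0.06 for Mael knockdown in small RNA. It moved it from -0.34 to -0.12 between Mael and Ago3 knockdown. In RNA it moved the median from 0.15 to 0.01 for Siwi knockdown and from -0.14 to 0.01 between Mael and Siwi knockdown.

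The entries differed widely in length. The RPKM steps gave a length for 15 of 16 members, and Hikikomori, listed at 0 in RNA throughout, had none. The SBTE members included the 3 longest, with 1088 bp for Ins11, 1360 bp for Tenshi, 3437 bp for Rinne, 4046 bp for Neet and 5851 bp for Yaocho. Unclassified members ran from 279 bp (Shirigonomi) to 1303 bp (Kohichi) with a median of 421 bp, and BmSE had 271 bp. The length of Shirigonomi rests on 5 reads in all and could be a multiple of 279 bp. In all, 6 members exceeded 1 kb, against a median of 722 bp over the 978 entries with a length. The SINE class of Rinne, Neet and Yaocho in the row names thus stands beside lengths above those of the short elements the class is known for.

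In control cells SINE-1_BM led the RNA and Rinne led the small RNA. SINE-1_BM RNA was at 277 and 309 RPKM, higher than 99.6% of the entries with a length. Rinne followed at 30.0 and 36.6 RPKM, Minichikuri at 31.1 and 33.3 RPKM and Chikuri_polyA_type at 24.4 and 29.5 RPKM, and the libraries of Rinne and Minichikuri overlapped. Below them came Ins11 at 21.1 and 22.5 RPKM and, by their means, BmSE (13.8 RPKM), Kusanagi (12.5) and Nagisa (8.54). Neet (1.56 RPKM) and Amanoya (1.42 RPKM) could not be ordered, since their libraries overlapped. Of the 16 members, 6 had a mean under 1 RPKM over the 6 libraries and were not tested in RNA.

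Those 6 were Kohichi, Tenshi, Sayama, Yaocho, Shirigonomi and Hikikomori. Kohichi was at 0.868 and 0.791 RPKM in control, 0.567 and 0.605 RPKM after Siwi knockdown and 1.07 and 1.61 RPKM after Mael knockdown. Its highest library held 76 reads. Sayama varied as much within groups as between them, with 9 and 18 reads in control, 12 and 46 after Siwi knockdown and 47 and 12 after Mael knockdown, at most 1.19 RPKM. Tenshi reached at most 0.669 RPKM. Yaocho was at 0.0426 and 0.0414 RPKM in control, 0.0789 and 0.0632 after Siwi knockdown and 0.0833 and 0.0988 after Mael knockdown, on 8 to 22 reads a library. Shirigonomi had 0 reads in the control and Siwi knockdown libraries and 1 and 4 reads after Mael knockdown, at most 0.395 RPKM. Hikikomori had 0 reads in every RNA library, which allows up to 0.0664 to 0.0923 reads per M library reads (3 reads of the total), while its small RNA in control cells was at 34.5 and 44.2 RPM. Fitted with no filter on low values, none of the 5 with reads passed the test in RNA (limma, smallest adjusted p = 0.209). At an unadjusted p under 0.05 stood Kohichi between Mael and Siwi knockdown and Shirigonomi for Mael knockdown against either group.

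The same members were ordered otherwise by small RNA. Per kilobase of entry, Rinne was highest at 673 RPM per kb and Amanoya next at 583 RPM per kb, with libraries that did not overlap. BmSE (235 RPM per kb), Minichikuri (210.4) and Shirigonomi (185) followed, and Nagisa, Ins11 and Chikuri_polyA_type stood at 156, 154 and 152 RPM per kb. Nagisa and Ins11 overlapped each other, as did Ins11 and Chikuri_polyA_type. SINE-1_BM was at 119, Neet at 83.9 and Sayama at 74.5 RPM per kb. Kusanagi (14.1), Tenshi (12.4), Kohichi (2.68) and Yaocho (1.40) had the least.

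Small RNA per RNA thus spanned a wide range in control cells. The ratio of RPM per kb to RPKM was 410.4 for Amanoya and 189 for Sayama, and it was 1.13 for Kusanagi and 0.406 for SINE-1_BM. Its median was 17.6 over the 14 members with both values above 0 and 25.4 over the 881 entries with both. The ratio sets 2 kinds of library side by side and is a rank, not an amount of small RNA per transcript. These libraries came from separate samples, and the tagged Siwi is given above for the small RNA groups only. It rests on few control reads for Sayama RNA (9 and 18 reads, 0.214 and 0.573 RPKM). The same holds for Kusanagi small RNA (16 and 15 reads, 3.33 and 8.51 RPM).

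**Figure D1:**
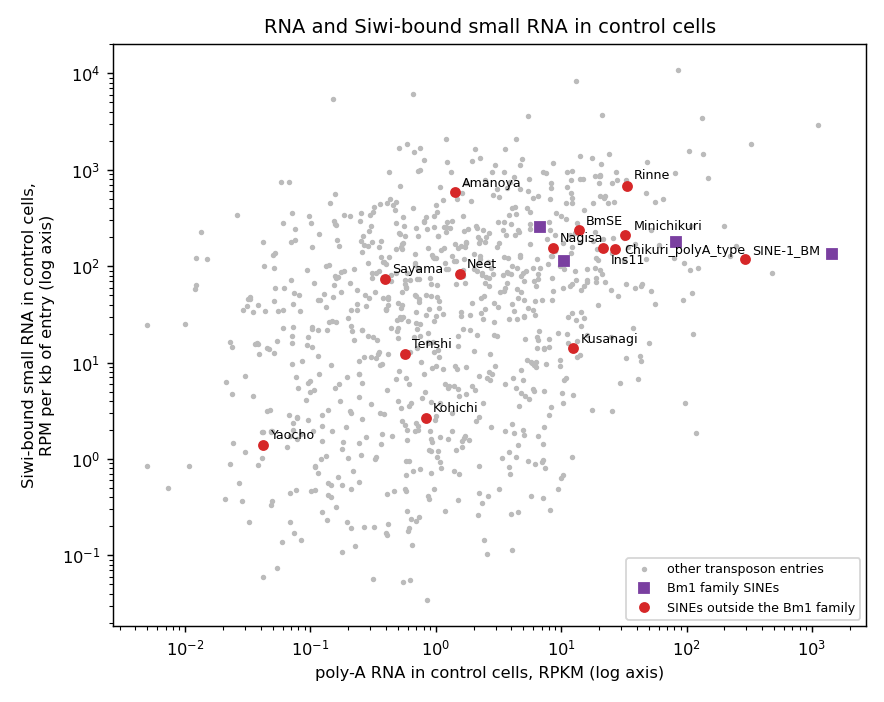
Mean poly-A RNA in control cells (RPKM, log axis) against mean Siwi-bound small RNA (RPM per kb of entry, log axis) for the 881 entries above 0 in both, with 14 SINEs outside the Bm1 family in red, the 4 Bm1 family SINEs as violet squares and other entries in grey. Amanoya sits high at little RNA, SINE-1_BM far right with the small RNA of middling members, and Yaocho and Kohichi low on the small RNA axis.

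As a group these SINEs were a small part of each pool. They held 0.387% ± 0.0130 (SD, n = 2) of the Siwi-bound reads in control cells. The share was 0.293% ± 0.0219 after Ago3 knockdown, and Mael knockdown left it at 0.351% ± 0.0188. Rinne alone made up 60.3% and 59.2% of their small RNA reads in control, 41.5% and 42.1% after Ago3 knockdown and 66.7% and 68.1% after Mael knockdown. Without Rinne the shares of the pool were 0.156% ± 0.00803, 0.171% ± 0.0139 and 0.114% ± 0.00974. The Ago3 knockdown and control libraries then overlapped, while both Mael knockdown libraries lay below both controls. All entries together held 43.05% ± 0.907 of the Siwi-bound reads in control, 36.6% ± 0.680 after Ago3 knockdown and 49.3% ± 0.194 after Mael knockdown. Of the RNA reads, the members held 0.0314% ± 0.00312 in control, 0.0360% ± 0.00181 after Siwi knockdown and 0.0368% ± 0.0000665 after Mael knockdown. Without SINE-1_BM the RNA shares were 0.0193% ± 0.00218, 0.0261% ± 0.00182 and 0.0188% ± 0.00202 in that order. Without Rinne they were 0.0200% ± 0.00152, 0.0196% ± 0.000462 and 0.0266% ± 0.00253. All entries held 2.52% ± 0.0723, 3.31% ± 0.263 and 2.92% ± 0.223 of the RNA reads. A read may count under several entries, so such sums can exceed the reads themselves.

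After knockdown of Ago3, the PIWI partner of Siwi, the small RNA of Rinne, Amanoya and Nagisa fell and that of BmSE, Tenshi and Ins11 rose. Thus 3 of 16 members fell, where 40.6% of all 1004 tested entries did, and 3 rose, where 16.8% did. The median log2 change was 0.13 over the members and -0.28 over all entries. With trimmed-mean scaling the same 3 fell (29.7% of all entries) and 9 rose (26.1%), the further 6 being Neet, Hikikomori, Chikuri_polyA_type, Minichikuri, Sayama and Shirigonomi.

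Rinne, the member with the most small RNA, was at 2277 and 2348 RPM in control and at 1281 and 1169 RPM after Ago3 knockdown. It fell by 0.92 ± 0.08 on the log2 scale (limma, adjusted p = 1.23e-13), to a mean of 1225 ± 79.3 RPM from 2312 ± 50.2 RPM. Amanoya went from 460.2 and 511 RPM to 247 and 263 RPM, a log2 change of -0.93 ± 0.10 (limma, adjusted p = 1.35e-10). For both, every knockdown library was below every control library. Nagisa fell furthest, from 57.2 and 64.1 RPM to 20.7 and 19.3 RPM, a ratio of 0.329 (log2 change -1.55 ± 0.18, limma, adjusted p = 8.93e-10).

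BmSE, the tRNA-type SINE, rose most. Its small RNA was at 61.0 and 66.3 RPM in control and at 457 and 223 RPM after Ago3 knockdown (log2 change 2.31 ± 0.19, limma, adjusted p = 5.64e-14). The knockdown libraries were both above the controls but differed 2.05-fold from each other, with counting intervals (95%, exact Poisson, counting error only) of 431 to 483 and 204 to 244 RPM. The log2 change was 1.80 without Ago3KD replicate 1 and 2.82 without Ago3KD replicate 2. Both lie further from 2.31 than the standard error of 0.19, which draws on other entries and understates the spread of BmSE. Tenshi rose from 15.6 and 18.1 RPM to 32.2 and 28.5 RPM (0.81 ± 0.23, limma, adjusted p = 0.00309). Ins11 rose from 155 and 180.3 RPM to 207 and 224 RPM (0.36 ± 0.11, limma, adjusted p = 0.00615), a call that leaving out LucKD replicate 1 (0.25) or Ago3KD replicate 2 (0.30), or fitting no trend in the spread, ended.

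The other 10 members did not pass the test after Ago3 knockdown. Neet came nearest, with 335 and 344 RPM in control and 388 and 398 RPM after knockdown, libraries that did not overlap (0.21 ± 0.09, limma, adjusted p = 0.0520; edgeR on the recovered reads, adjusted p = 0.0428). Hikikomori stood at 46.7 and 51.0 RPM, also above both controls (0.31 ± 0.18). Sayama was at 68.0 and 73.7 RPM in control and 77.3 and 73.9 RPM after Ago3 knockdown. Shirigonomi was at 52.4 and 51.0 RPM and then 60.9 and 56.0 RPM. Chikuri_polyA_type (log2 change 0.07) was at 108 RPM in both controls and then at 109 and 118 RPM, and Minichikuri (0.04) at 83.6 and 90.2 RPM and then 91.9 and 86.3 RPM. SINE-1_BM was at 55.3 and 43.1 RPM in control and 47.1 and 43.6 RPM after knockdown. Low reads limit the rest: Yaocho had 7.91 and 8.51 RPM and then 8.04 and 11.9 RPM, Kusanagi 3.33 and 8.51 RPM and then 7.66 and 7.35 RPM, and Kohichi 4.16 and 2.84 RPM and then 3.83 and 3.21 RPM, where 3 reads stand for 0.624 to 1.70 RPM.

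**Figure D2:**
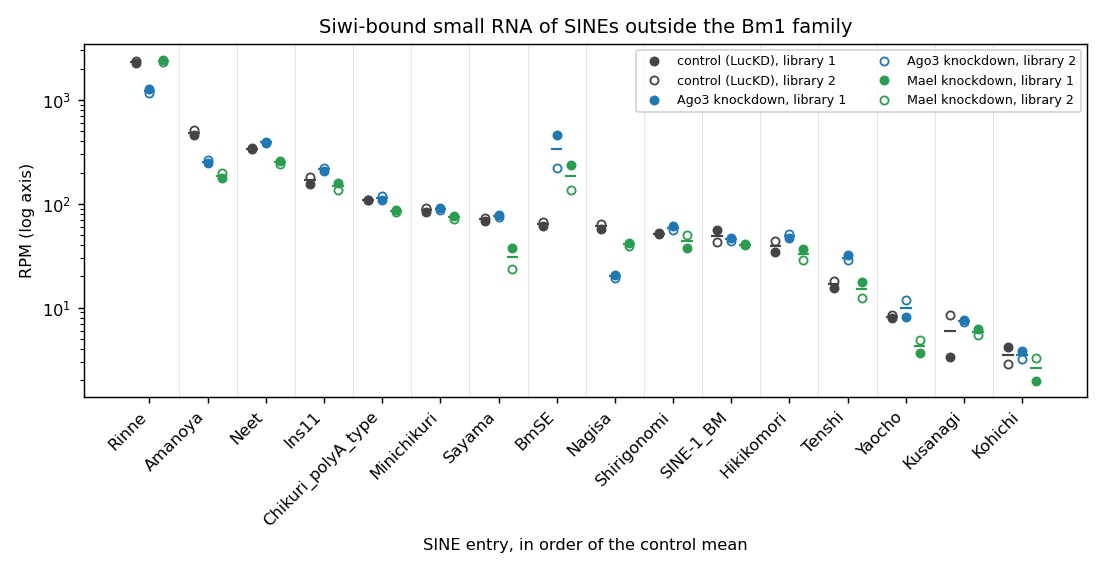
Siwi-bound small RNA (RPM, log axis) of the 16 members in each of the 6 libraries, with group means as bars, for control (grey), Ago3 knockdown (blue) and Mael knockdown (green); filled and open circles are libraries 1 and 2. Nagisa and Rinne are lowest after Ago3 knockdown, Sayama and Yaocho after Mael knockdown, Amanoya is below control in both, and the 2 libraries of BmSE lie far apart in both knockdowns.

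After Mael knockdown the small RNA of Amanoya and Sayama fell, and that of BmSE rose, under the values as deposited and with trimmed-mean scaling. As deposited, 6 of 16 members fell, where 44.4% of all 1004 entries did, and 1 rose, where 11.8% did; the median was -0.26 over the members and -0.44 over all entries. With trimmed-mean scaling 2 fell (19.6% of all entries) and 4 rose (25.7%), and the members' median turned to 0.30, against 0.06 over all entries. Amanoya was at 176 and 198 RPM after Mael knockdown, a ratio of 0.384 to control (log2 change -1.38 ± 0.10, limma, adjusted p = 3.59e-15; -0.80 with trimmed-mean scaling). Sayama was at 37.7 and 23.3 RPM, below both controls (-1.23 ± 0.17, limma, adjusted p = 7.66e-08; -0.66 with trimmed-mean scaling). BmSE was at 235 and 135 RPM, above both controls (1.47 ± 0.19, limma, adjusted p = 8.35e-09; 2.04 with trimmed-mean scaling). Its 2 libraries again differed, with 1.07 without MaelKD replicate 1 and 1.87 without MaelKD replicate 2.

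The other 4 falls after Mael knockdown depended on the scaling. Nagisa was at 42.3 and 39.6 RPM, lower than control as deposited (-0.55 ± 0.18, limma, adjusted p = 0.00805) but at 0.012 with trimmed-mean scaling, and the call was lost without LucKD replicate 2 (-0.47) or MaelKD replicate 2 (-0.51). Neet was at 258 and 243 RPM, lower as deposited (-0.44 ± 0.09, limma, adjusted p = 0.000103) and at 0.14 with trimmed-mean scaling. Chikuri_polyA_type was at 87.3 and 84.1 RPM, lower as deposited (-0.33 ± 0.12, limma, adjusted p = 0.0218) and at 0.24 with trimmed-mean scaling, and the call was lost without LucKD replicate 2 (-0.33), MaelKD replicate 1 (-0.36) or MaelKD replicate 2 (-0.31) and without a trend in the spread. In each of these 3 the libraries as deposited did not overlap with control. Yaocho was at 3.64 and 4.88 RPM on 11 and 9 reads (-0.82 ± 0.33, limma, adjusted p = 0.0340), a call lost with trimmed-mean scaling (-0.32), with no filter on low values and without LucKD replicate 1 (-0.86), LucKD replicate 2 (-0.77) or MaelKD replicate 1 (-0.64).

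Rinne, at 2426 and 2298 RPM after Mael knockdown, overlapped with control as deposited (0.03 ± 0.08, limma, adjusted p = 0.756) and was higher with trimmed-mean scaling (0.61, limma, adjusted p = 9.18e-08). Ins11 (157 and 136 RPM) and Minichikuri (77.1 and 71.1 RPM) were likewise called higher with that scaling, at 0.38 and 0.34, and had -0.19 and -0.23 as deposited. Ins11 was called lower without LucKD replicate 1 (-0.30). The remaining members did not pass the test under either. SINE-1_BM was at 39.7 and 41.2 RPM, Shirigonomi at 37.4 and 50.5 RPM, Hikikomori at 36.7 and 28.8 RPM and Tenshi at 17.5 and 12.5 RPM. Kusanagi, at 6.28 and 5.43 RPM, and Kohichi, at 1.98 and 3.26 RPM, had at most 19 reads in a Mael knockdown library.

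**Figure D3:**
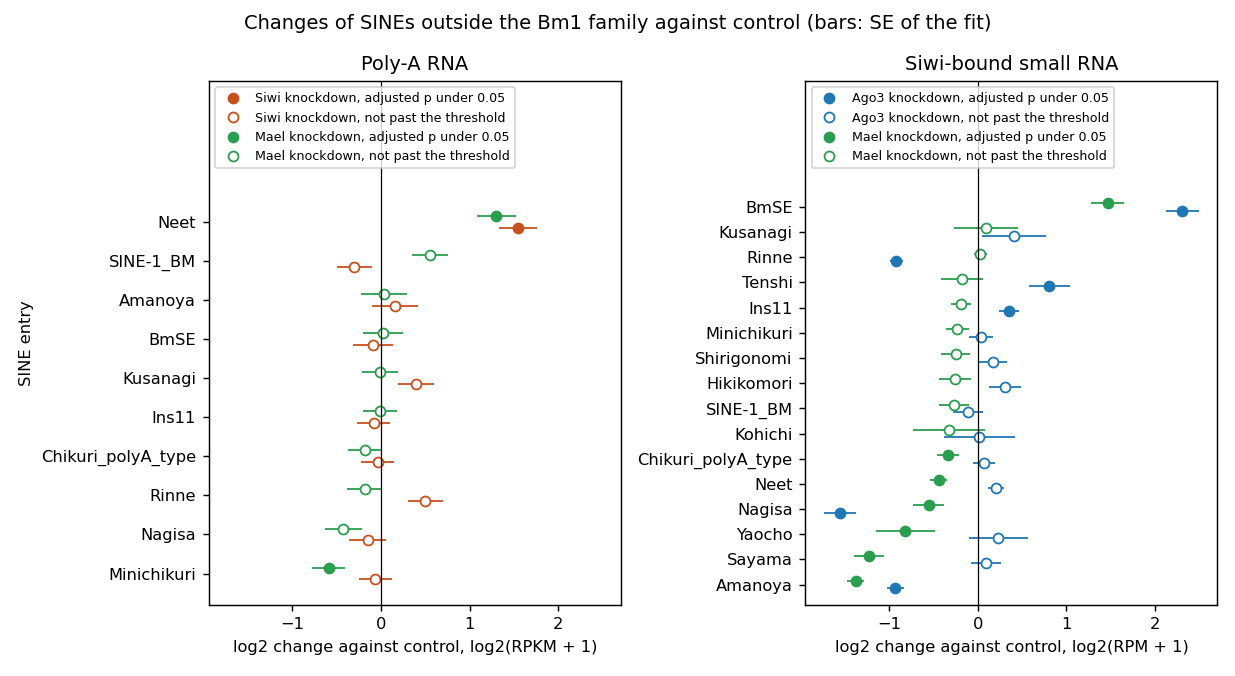
Log2 changes against control on the log2(value + 1) scale, with the SE of the limma fit, for 10 members in poly-A RNA (Siwi knockdown in orange, Mael knockdown in green) and 16 members in Siwi-bound small RNA (Ago3 knockdown in blue, Mael knockdown in green); filled points passed the adjusted p of 0.05. Neet is the member far to the right in RNA, BmSE in small RNA, and the small RNA of Nagisa and Rinne is lower after Ago3 than after Mael knockdown.

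Set directly against each other, the knockdowns separated Rinne and Nagisa from most other members. Small RNA was higher after Mael than after Ago3 knockdown for these 2 members of 16, where 20.7% of all 1004 entries were higher. Rinne was 1.93-fold higher (log2 difference 0.95 ± 0.08, limma, adjusted p = 4.04e-14) and Nagisa 2.05-fold higher (1.00 ± 0.18, limma, adjusted p = 8.34e-06), and both calls held under every alternative tried. With trimmed-mean scaling 26.2% of all entries were higher. In contrast 10 members were lower after Mael knockdown, where 31.7% of all entries were, and among them all SBTE members other than Rinne. With trimmed-mean scaling 6 of the 10 were still lower (20.5% of all entries), namely Sayama, Yaocho, Tenshi, BmSE, Neet and Ins11. Sayama had the lowest difference (-1.32 ± 0.17, limma, adjusted p = 1.68e-08), since it fell after Mael knockdown and had not passed the test after Ago3 knockdown. Neet (-0.65 ± 0.09), Ins11 (-0.55 ± 0.11) and Tenshi (-0.98 ± 0.23) were lower under every alternative tried, with adjusted p up to 0.0308.

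Single libraries carried several of the other differences between Mael and Ago3 knockdown. BmSE, whose libraries overlapped, was lower by -0.84 ± 0.19 (limma, adjusted p = 0.000184), a call lost without Ago3KD replicate 1 (-0.33), while the difference was -1.36 without Ago3KD replicate 2, -1.24 without MaelKD replicate 1 and -0.44 without MaelKD replicate 2. Yaocho (-1.05 ± 0.33) lost its call without Ago3KD replicate 2 (-0.79) or MaelKD replicate 1 (-0.88). Hikikomori (-0.57 ± 0.18) lost it without Ago3KD replicate 2 (-0.51) or MaelKD replicate 2 (-0.40). Chikuri_polyA_type (-0.41 ± 0.12) lost it without Ago3KD replicate 2 (-0.35), and Shirigonomi (-0.42 ± 0.16) without Ago3KD replicate 1 (-0.36), Ago3KD replicate 2 (-0.48) or MaelKD replicate 1 (-0.21). Hikikomori, Chikuri_polyA_type, Shirigonomi and Amanoya (-0.45 ± 0.10) were not called with trimmed-mean scaling. Without a trend in the spread BmSE, Hikikomori and Shirigonomi lost their calls, and Shirigonomi did so too with no filter on low values. Minichikuri, SINE-1_BM, Kusanagi and Kohichi did not pass the test.

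In RNA, Neet was the member that rose after Siwi knockdown. It was at 1.52 and 1.60 RPKM in control and at 6.92 and 6.07 RPKM after Siwi knockdown, libraries far from overlap. The mean was 4.16 times that of control (log2 change 1.55 ± 0.22, limma, adjusted p = 1.49e-06; edgeR on the recovered reads, adjusted p = 1.87e-17), and the call held under every alternative in which Neet was tested. It was the only rise among 10 tested members, where 24.3% of all 490 entries rose. No member fell (limma; 0 at an unadjusted p under 0.05 and 0 by edgeR), where 3.06% of all entries did. With trimmed-mean scaling the members' counts were the same, and 19.0% of all entries rose and 7.55% fell. The median log2 change was -0.05 over the members and 0.15 over all entries.

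Rinne RNA was at 30.0 and 36.6 RPKM in control and at 52.2 and 42.9 RPKM after Siwi knockdown, which did not overlap but missed the threshold (0.50 ± 0.20, limma, adjusted p = 0.0557). It passed without SiwiKD replicate 2 (0.64) and when entries needed a mean of at least 10 RPKM. SINE-1_BM was at 238 RPKM in both Siwi knockdown libraries, below both controls, and did not pass the test (-0.30 ± 0.20, limma, adjusted p = 0.301). Kusanagi went from 11.99 and 13.0 RPKM to 18.4 and 15.1 RPKM, again with no overlap (0.39 ± 0.20, limma, adjusted p = 0.160).

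The remaining members overlapped with control or moved little. BmSE was at 14.6 and 13.0 RPKM in control and at 8.86 and 18.5 RPKM after Siwi knockdown, and the latter differed from each other beyond counting error (95% exact Poisson intervals 7.003 to 11.1 and 16.0 to 21.2 RPKM). Minichikuri was at 31.2 and 30.4 RPKM, Chikuri_polyA_type at 24.4 and 27.9 RPKM and Ins11 at 17.9 and 23.5 RPKM. Nagisa was at 7.60 and 9.48 RPKM in control and 8.05 and 7.08 RPKM after Siwi knockdown. Amanoya, with 39 to 59 reads a library, was at 1.06 and 1.78 RPKM and then 1.73 and 1.60 RPKM.

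**Figure D4:**
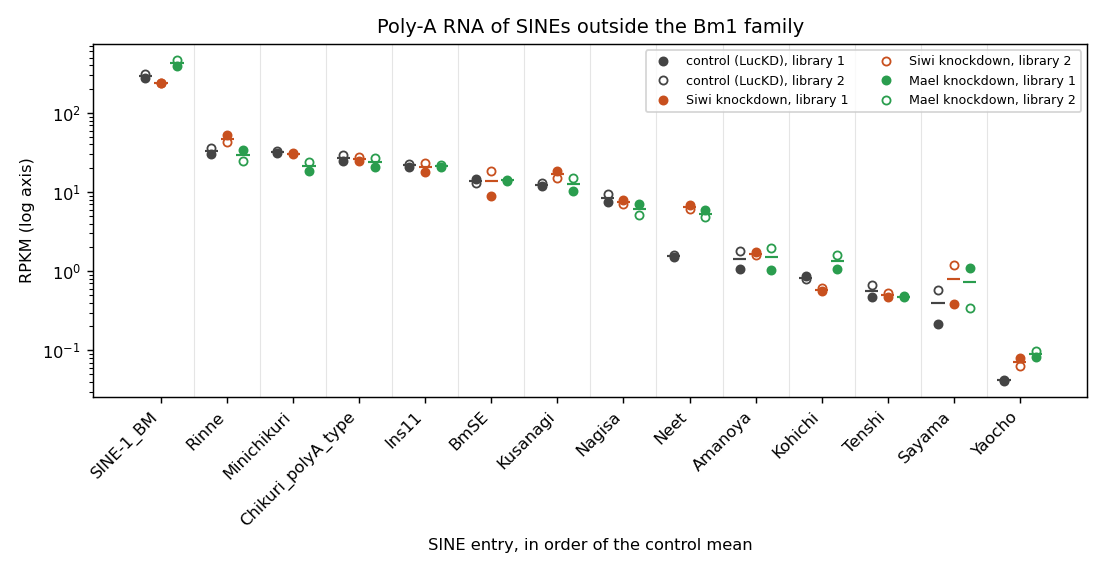
Poly-A RNA (RPKM, log axis) in each of the 6 libraries, with group means as bars, for control (grey), Siwi knockdown (orange) and Mael knockdown (green); filled and open circles are libraries 1 and 2. The 14 members above 0 in every library are shown, so Hikikomori and Shirigonomi are not; Neet is raised in both knockdowns, and SINE-1_BM is highest after Mael knockdown (397 and 468 RPKM).

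After Mael knockdown the RNA of Neet rose as well, and that of Minichikuri fell. Of 10 tested members 1 rose, where 8.37% of all 490 entries did, and 1 fell, where 2.65% did. With trimmed-mean scaling the members' counts were again 1 and 1, and the shares of all entries 8.16% and 2.65%. The median was -0.01 for both the members and all entries. Neet was at 5.87 and 4.78 RPKM, 3.42 times control (1.301 ± 0.22, limma, adjusted p = 8.99e-05), and the call held under every alternative in which it was tested. Minichikuri went from 31.1 and 33.3 RPKM to 18.6 and 23.8 RPKM (-0.59 ± 0.19, limma, adjusted p = 0.0334). That call was lost without LucKD replicate 1 (-0.64), LucKD replicate 2 (-0.54), MaelKD replicate 1 (-0.42) or MaelKD replicate 2 (-0.76), with edgeR on the recovered reads (adjusted p = 0.0547), with no filter on low values and without a trend in the spread.

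SINE-1_BM, the most abundant member, was at 397 and 468 RPKM after Mael knockdown, above both controls, and missed the threshold (0.56 ± 0.20, limma, adjusted p = 0.0772; edgeR, adjusted p = 0.0579). Chikuri_polyA_type, whose name resembles that of Minichikuri and which may share reads with it, was at 20.5 and 27.2 RPKM and overlapped with control. Nagisa was at 7.15 and 5.15 RPKM, below both controls (-0.42 ± 0.21, limma, adjusted p = 0.256). Rinne was at 34.5 and 24.4 RPKM, Ins11 at 20.8 and 22.3 RPKM, BmSE at 13.9 and 14.2 RPKM, Kusanagi at 10.3 and 14.9 RPKM and Amanoya at 1.04 and 1.95 RPKM, and the log2 changes of these 5 were between -0.18 and 0.03.

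Compared directly, RNA of SINE-1_BM was higher after Mael than after Siwi knockdown, and that of Rinne and Minichikuri was lower. Thus 1 of 10 members was higher, where 1.63% of all entries were, and 2 were lower, where 18.8% were. With trimmed-mean scaling 1 was higher (2.24% of all entries) and none lower (9.18%; limma, 1 at an unadjusted p under 0.05, and 1 by edgeR with no such scaling). With no filter on low values, which tests many more entries, none of these 3 calls was kept. SINE-1_BM was 1.82-fold higher (log2 difference 0.85 ± 0.20, limma, adjusted p = 0.00255; 1.04 with trimmed-mean scaling), a call lost without MaelKD replicate 2 (0.74). Rinne was lower by -0.69 ± 0.20 (limma, adjusted p = 0.0113), a call lost without MaelKD replicate 2 (-0.44) or SiwiKD replicate 1 (-0.55) and with trimmed-mean scaling (-0.50). Minichikuri was lower by -0.53 ± 0.19 (limma, adjusted p = 0.0404), which no setting that left out a single library kept (-0.70 to -0.36), nor did trimmed-mean scaling. Neet did not differ past the threshold (-0.25 ± 0.22, limma, adjusted p = 0.512).

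Of the members, Neet and Minichikuri were the ones with an RNA change past the threshold against control, and their small RNA stood as follows. RNA and small RNA came from separate samples, and the small RNA groups shared the tagged Siwi. Neet RNA was 3.42 times control after Mael knockdown, and its small RNA was 0.737 of control as deposited, the fall that trimmed-mean scaling turned to 0.14. Minichikuri RNA was 0.658 of control after Mael knockdown and its small RNA 0.852 of control, not past the threshold. Amanoya and Sayama, with the largest small RNA falls after Mael knockdown, had RNA at 1.42 ± 0.511 and 1.49 ± 0.645 RPKM (Amanoya) and 0.393 ± 0.254 and 0.720 ± 0.528 RPKM (Sayama) in control and Mael knockdown cells. BmSE, whose small RNA was 2.90 times control after Mael knockdown, had RNA at 13.8 ± 1.16 and 14.1 ± 0.237 RPKM.

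The Bm1 family and the LINE class gave the setting for these counts. After Siwi knockdown 3 of 4 Bm1 family entries and 17 of 78 tested LINE entries rose in RNA, against 1 of 10 members, and 2 LINE entries fell. With trimmed-mean scaling 2 of 4 Bm1 family entries and 13 LINE entries rose, and 4 LINE entries fell. After Mael knockdown 1 of 4 Bm1 family entries and 3 of 78 LINE entries rose in RNA by limma, and 1 and 7 by edgeR on the recovered reads. The Bm1 family entry was ChoBm1 (log2 change 0.59), whose call was lost when any single LucKD or MaelKD library was left out (0.49 to 0.70). Without MaelKD replicate 2 limma called 0 of 4 Bm1 family entries and 0 of 78 LINE entries, with 2 and 3 higher at an unadjusted p under 0.05. In small RNA after Ago3 knockdown 3 of 4 Bm1 family entries rose and none fell (limma; 0 at an unadjusted p under 0.05 and 0 by edgeR), while 18 of 172 LINE entries rose and 89 fell. With trimmed-mean scaling all 4 Bm1 family entries rose, and 29 LINE entries rose and 73 fell. After Mael knockdown 2 of 4 Bm1 family entries rose and 1 fell, a fall of ChoBm1 that became 0.16 with trimmed-mean scaling, and 22 of 172 LINE entries rose and 83 fell. With trimmed-mean scaling the excess of LINE falls was gone, with 45 higher and 42 lower, and 3 of 4 Bm1 family entries rose. Bm1 itself had log2 changes of 1.29 ± 0.14 and BmSE 2.31 ± 0.19 after Ago3 knockdown, and 0.77 ± 0.14 and 1.47 ± 0.19 after Mael knockdown. Whether the members differ as a list from either group was not tested.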

How the data were processed

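Poly-A RNA and Flag-Siwi small RNA were measured in 6 libraries each. Per the file headers, the deposited RNA values were RPKM and the deposited small RNA values were RPM, both computed by the authors. The submitters' processing notes name STAR 2.7.9a, Trim Galore, cutadapt 3.1, bedtools, Bowtie 1.3.0 and SAMtools. How each was used, the genome build, strand handling and the counting of reads with several matches are not stated there, so similar entries may share reads. Per the labels' protocols, small RNA was read for 51 nt. All 10296 RPM values (100%) came out as whole reads, within 0.001 reads, as were the RPKM values of 978 of 978 entries above 0 once a length per entry was found. Values were tested as log2(value + 1) with limma 3.58.1 in R 4.3.3 over all 6 libraries of a table, with a trend in the spread, checked first on simulated data. On the recovered reads edgeR 4.0.16 called 139, 61 and 111 entries in RNA (Siwi and Mael knockdown against control, Mael against Siwi knockdown) and 606, 574 and 512 in small RNA (Ago3 and Mael knockdown against control, Mael against Ago3 knockdown). All members were named, with every library's value where their mean was at least 1. Members and lists were chosen with earlier results of these data known. Entries have no coordinates, and no sequences of them were used here.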

Additional observations from a re-analysis of the deposited data

How the results depend on the processing

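Against the deposited values, 556 of 606 member changes under the alternatives that kept all libraries, and 252 of 312 with 1 library of a compared group left out, kept their direction and their side of the threshold. These numbers include the many changes that were not called in the deposited values, so they do not measure how stable the calls were. Counts of calls moved by over 1.5 times as follows. Without a filter on low values limma called 19 entries (Mael knockdown against control), 30 (Mael against Siwi knockdown) and 74 (Siwi knockdown against control) in RNA, and with a mean of at least 10 it called 31, 42 and 63, where fewer entries enter. Trimmed-mean scaling left 56 RNA calls for Mael against Siwi knockdown. Member calls in RNA after Mael knockdown were 1 with edgeR, with a mean of at least 10 (Minichikuri, since Neet then drops out), without a filter and without a trend in the spread. For Mael against Siwi knockdown they were 1 with trimmed-mean scaling and 0 without a filter (limma; 3 higher and 2 lower at an unadjusted p under 0.05, 2 by edgeR with the filter). Small RNA member calls after Ago3 knockdown were 12 with trimmed-mean scaling. Leaving out 1 library gave 18 to 63 entries and 1 to 2 members (Mael knockdown, RNA), 34 to 100 entries and 0 to 2 members (Mael against Siwi knockdown), 1 to 2 members (Siwi knockdown) and 4 to 7 members (Mael knockdown, small RNA).

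The replicate numbers showed no shared shift over all entries, where differences between libraries 1 and 2 correlated by -0.05 to 0.05 across groups. Such correlations cannot exclude a pairing that acts on few entries, and the calls of some members did change with it. With the number as a replicate block, member calls were 2 for Siwi knockdown in RNA (Rinne added), 3 for Mael knockdown in RNA (SINE-1_BM added), and 7 for Ago3 knockdown in small RNA (Neet added); it changed no other member call.

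Signs turned with trimmed-mean scaling for small RNA after Mael knockdown in Chikuri_polyA_type (0.24), Hikikomori (0.30), Ins11 (0.38), Kohichi (0.11), Minichikuri (0.34), Nagisa (0.012), Neet (0.14), SINE-1_BM (0.30), Shirigonomi (0.32) and Tenshi (0.37), for SINE-1_BM after Ago3 knockdown (0.20) and between Mael and Ago3 knockdown (0.094), and for Chikuri_polyA_type RNA between Mael and Siwi knockdown (0.045). With edgeR they turned for Kusanagi RNA after Mael knockdown (0.00998) and Kohichi small RNA after Ago3 knockdown (-0.089). With 1 library left out, signs turned only for values not called, whose ranges follow. RNA after Mael knockdown: Amanoya -0.23 to 0.30, BmSE -0.052 to 0.11, Chikuri_polyA_type -0.37 to 0.020, Ins11 -0.059 to 0.036, Kusanagi -0.26 to 0.24 and Rinne -0.43 to 0.058. RNA of Mael against Siwi knockdown: Amanoya -0.39 to 0.15, BmSE -0.37 to 0.61, Chikuri_polyA_type -0.33 to 0.058 and Ins11 -0.12 to 0.26. RNA after Siwi knockdown: Amanoya -0.062 to 0.37, BmSE -0.58 to 0.40, Chikuri_polyA_type -0.17 to 0.091 and Ins11 -0.27 to 0.11. Small RNA after Ago3 knockdown: Kohichi -0.19 to 0.23, Kusanagi -0.16 to 0.97, Minichikuri -0.017 to 0.0896, SINE-1_BM -0.28 to 0.071 and Yaocho -0.026 to 0.49. Small RNA after Mael knockdown: Kusanagi -0.47 to 0.66, Rinne -0.0088 to 0.0697 and Tenshi -0.40 to 0.055. Apart from the scaling, whose construction moves all entries together, the cause was not tested. Depth limits Kohichi, Kusanagi and Yaocho, with 5 to 38 small RNA reads a library.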
